A study of Mus musculus with 143 samples.

Results

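The regions described here are RNA polymerase II (Pol II) peaks that were listed in oocytes lacking Dis3 and in no control list. They were taken from the autosomal CUT&Tag peaks of the library Dis3 cKO 1 (chromosomes 1 to 19). A peak was kept as gained if at least 1 bp of it was overlapped by a peak of Dis3 cKO 2 or Dis3 cKO 3 and none of it by a peak of any of 6 control lists. Of 84842 autosomal peaks in Dis3 cKO 1, 7540 met the rule, which is 8.89% of the list. A further 42124 peaks overlapped a control peak and are called shared below, whether or not they had a Dis3 cKO partner. The other 35178 had neither a control peak nor a Dis3 cKO partner. Gained and shared peaks thus differ in required recurrence as well as in control overlap. The members were chosen by the measured Pol II peak positions in these 9 lists, so their number, signal and recurrence are given as a description without a test.

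The material was mouse oocytes of control animals and of animals with conditional knockouts (cKO) of Dis3 or Exosc10, or a double knockout of the pair (dcKO). Pol II was profiled in 3 groups of 3 libraries: fully grown adult oocytes at the germinal vesicle (GV) stage, before the nucleus breaks down, as control and Dis3 cKO, and control oocytes of postnatal day 20 (p20). H3K27me3 was profiled in 4 groups of 3 libraries: adult GV control, adult GV Dis3 cKO, p20 control and p20 dcKO. RNA of single oocytes came from RiboMinus libraries, which deplete ribosomal RNA (8 per group: adult GV oocytes of control and Dis3 cKO animals, and p20 oocytes of control, Exosc10 cKO, Dis3 cKO and dcKO animals), and from poly(A) libraries of GV oocytes (8 control and 15 Dis3 cKO), of GV oocytes cultured for 3 h (8 and 16) and of metaphase II (MII) eggs (8 and 16). The labels call the CUT&Tag material bulk oocytes and say that the mutant mice were made by CRISPR/Cas9. They name no Cre driver and no genotype of the control animals beyond "control", and the antibody behind the Pol II title (pols2s5, S2 and S5) is not described further. IgG libraries were not analysed here. No label says that libraries of a group came from separate animals, so p-values measure the spread between these libraries.

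DIS3 is a ribonuclease of the RNA exosome, which in the nucleus degrades unstable nuclear transcripts such as promoter upstream transcripts, antisense RNA and enhancer RNA. Pol II carries phosphate on serine 5 of its tail repeats early in transcription and on serine 2 during elongation, so CUT&Tag with such antibodies marks engaged polymerase at starts and along gene bodies. H3K27me3 is the histone mark that Polycomb repressive complexes deposit over silent genes. Fully grown GV oocytes are close to transcriptionally silent, whereas growing oocytes of juvenile ovaries transcribe actively.

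No genome was at hand to read the sequence under the peaks. The promoters of the 5 genes named below whose gained peak covers part of the promoter window are therefore shown. The windows run from 250 bases before to 50 bases after the start, 5′ to 3′ on the gene's strand, and are from RefSeq (GRCm38.p6). Capitals mark matches on either strand to the TATA box TATAAA, the CAAT box CCAAT, the GC box GGGCGG, the E-box CACGTG, the cAMP response element half-site TGACGT and the letters TGCGCA.
Doxl1: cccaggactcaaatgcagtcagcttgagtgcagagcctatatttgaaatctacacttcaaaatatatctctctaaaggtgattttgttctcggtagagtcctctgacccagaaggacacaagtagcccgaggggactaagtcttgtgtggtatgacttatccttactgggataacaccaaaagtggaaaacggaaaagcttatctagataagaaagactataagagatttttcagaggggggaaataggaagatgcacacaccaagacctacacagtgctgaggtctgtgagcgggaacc
Spg21: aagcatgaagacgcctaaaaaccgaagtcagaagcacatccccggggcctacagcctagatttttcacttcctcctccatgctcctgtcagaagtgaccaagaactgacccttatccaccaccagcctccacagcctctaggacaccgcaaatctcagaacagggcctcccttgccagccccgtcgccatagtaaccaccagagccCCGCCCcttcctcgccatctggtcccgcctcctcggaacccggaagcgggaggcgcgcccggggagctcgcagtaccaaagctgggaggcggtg
Ppp2r5c: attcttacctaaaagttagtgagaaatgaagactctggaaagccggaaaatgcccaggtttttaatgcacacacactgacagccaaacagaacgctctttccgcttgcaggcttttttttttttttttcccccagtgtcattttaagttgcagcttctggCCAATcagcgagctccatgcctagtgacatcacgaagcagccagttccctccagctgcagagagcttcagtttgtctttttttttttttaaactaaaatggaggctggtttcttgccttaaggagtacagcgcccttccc
Add1: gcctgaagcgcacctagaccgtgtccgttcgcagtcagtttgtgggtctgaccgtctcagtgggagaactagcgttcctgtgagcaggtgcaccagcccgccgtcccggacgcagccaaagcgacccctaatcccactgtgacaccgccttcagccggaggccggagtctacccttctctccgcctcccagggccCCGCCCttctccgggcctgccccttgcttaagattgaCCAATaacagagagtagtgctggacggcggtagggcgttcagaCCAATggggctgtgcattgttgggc
Dcun1d1: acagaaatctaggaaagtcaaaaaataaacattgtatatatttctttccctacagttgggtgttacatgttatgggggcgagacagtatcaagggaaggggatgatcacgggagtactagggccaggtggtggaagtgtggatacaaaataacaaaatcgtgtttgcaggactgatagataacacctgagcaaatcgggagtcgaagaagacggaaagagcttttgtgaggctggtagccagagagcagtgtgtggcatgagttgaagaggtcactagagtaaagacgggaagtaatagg
These windows are chr6:48929646-48929945 on the + strand for Doxl1, chr9:65460687-65460986 on the + strand for Spg21, chr12:110485547-110485846 on the + strand for Ppp2r5c, chr5:34573414-34573713 on the + strand for Add1 and chr3:35930025-35930324 on the - strand for Dcun1d1. The gained peaks covered all 300 bases of the window of Doxl1, 92 of Spg21, 300 of Ppp2r5c, 267 of Add1 and 270 of Dcun1d1. Doxl1 and Dcun1d1 held none of the 6 motifs. The starts used for Spg21 (65460937), Ppp2r5c (110485797) and Dcun1d1 (35930074) lie inside the bounds of these genes, not at their edge.

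Over all 305 promoter windows (276 genes) with a gained peak within 1000 bp of the start, base composition was close to that at starts with shared peaks. Median GC content was 54.7% at starts with gained peaks, 56.3% at 1557 starts with shared peaks and 53% over all 31396 windows. Windows with at least 10 CpG made up 51.1%, 50.9% and 44.0%. The GC box GGGCGG was found in 41.0%, 43.4% and 36.0% of windows and TATAAA in 9.51%, 9.31% and 13.6%. The CAAT box CCAAT was found in 38.0%, 38.3% and 37.3%, TGACGT in 9.18%, 7.90% and 7.57%, TGCGCA in 9.18%, 9.31% and 7.76%, and the E-box CACGTG in 4.26%, 8.29% and 7.14%. A match describes letters in these windows and not a bound site.

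The lists differed in length and in their lowest listed signal, and both move with the number of gained peaks. Adult control lists held 19166, 34825 and 29870 autosomal peaks with a lowest total signal of 3002, 1869 and 1928. Dis3 cKO 2 was like them, with 29298 peaks and a lowest total signal of 1890. Dis3 cKO 1 and Dis3 cKO 3 held 84842 and 117182 peaks and, like the 3 p20 control lists (71337 to 79302 peaks), reached down to a total signal of 102 or 103. Of the gained peaks, 4048 (53.7%) lay at or above 3002, the highest of these lower ends, as did 63.4% of shared peaks.

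Most gained peaks had their partner in Dis3 cKO 3. That list alone supported 5903 (78.3%), Dis3 cKO 2 alone supported 1115 (14.8%), and 522 (6.92%) were present in all 3 Dis3 cKO lists. Dis3 cKO 3 overlapped 45.6% and Dis3 cKO 2 overlapped 19.6% of shared peaks. Shared peaks needed no Dis3 cKO partner, whereas each gained peak needed at least 1. The shares of the 2 classes therefore have unlike bases and do not compare their recurrence. Without Dis3 cKO 3, 1637 gained peaks were left, and without Dis3 cKO 2, 6425. Of the gained peaks, 3960 (52.5%) had a control peak within 1000 bp, and 776 had one within 100 bp. Those 776 just inside the rule had a median width of 563 bp and a median total signal of 3128, and 1113 supported peaks just outside it, touched by control peaks over 1 to 100 bp, had 551 bp and 3230.

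Turning the rule round gave a comparable yield from p20 control lists. With each p20 control list as anchor, 7450, 7702 and 7787 peaks recurred in another p20 control list and in no adult list, between 9.71% and 10.4% of each list. With adult control lists as anchors, 519, 739 and 666 peaks met the rule, 2.71%, 2.12% and 2.23% of their lists. With Dis3 cKO 2 or Dis3 cKO 3 as anchor the numbers were 3241 (11.1%) and 8194 (6.99%). When only the adult groups were set against each other, 17209, 7885 and 18354 peaks of Dis3 cKO lists (15.7% to 26.9%) were gained, against 1346, 1942 and 1734 peaks (5.58% to 7.02%) of control lists. With every list cut to its 19166 strongest peaks the same comparison gave 2625, 2469 and 2569 against 1848, 1931 and 1859. The 3 Dis3 cKO values were above the 3 control values in both versions, and their ratio was smaller between lists of equal length.

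**Figure D1:**
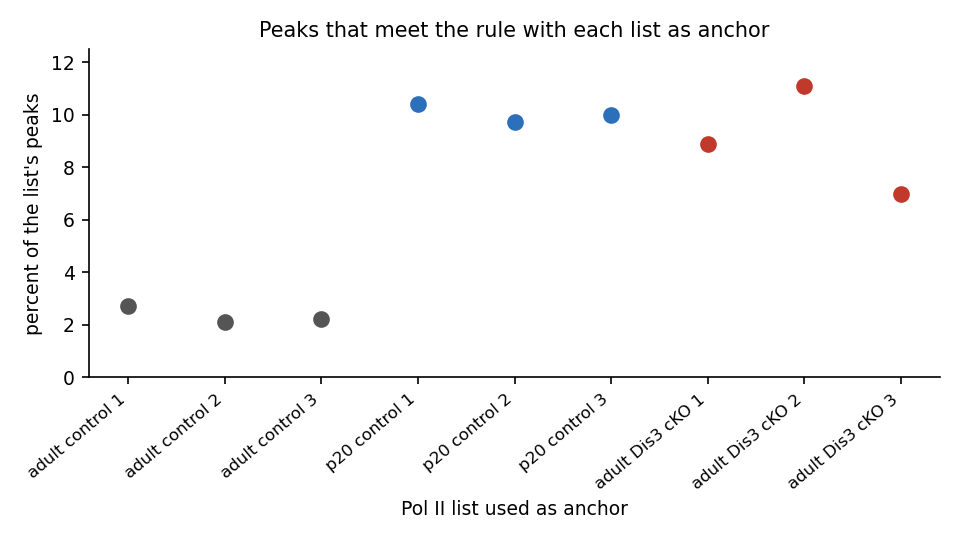
Percent of autosomal peaks of each Pol II list (y axis) that recur in another list of the same group and overlap no peak of the other groups, with each of the 9 lists as anchor (x axis; grey adult control, blue p20 control, red adult Dis3 cKO; 1 point per list). The 3 adult control lists sit at 2.12% to 2.71%, and the p20 control and Dis3 cKO lists between 6.99% and 11.1%.

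Gained peaks were narrower and weaker than shared peaks of the same library, a direction that the rule itself favours. A wide peak is more easily touched by a control peak, and the adult control lists hold no peaks of low total signal. How much of the differences below comes from the rule was not tested. Their median width was 576 bp (quartiles 429 and 752, range 55 to 2840), against 641 bp (quartiles 472 and 885, up to 68197) for shared peaks. Their median total signal, the authors' own value per peak, was 3156 (quartiles 1996 and 4657) against 3789 (quartiles 2338 and 5888), and the median of the maximum signal was 10 against 12. Peaks with neither kind of partner were lower again, at 527 bp and 2763. The 522 gained peaks found in all 3 Dis3 cKO lists had a median width of 609 bp and a median total signal of 3791. The classes differed most at the top of the list. Gained peaks made up 8.33% to 9.70% of each of the lower 9 deciles of Dis3 cKO 1 by total signal and 5.98% of the top decile, in which shared peaks made up 82.6%. In total the gained peaks covered 4.65 Mb.

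**Figure D2:**
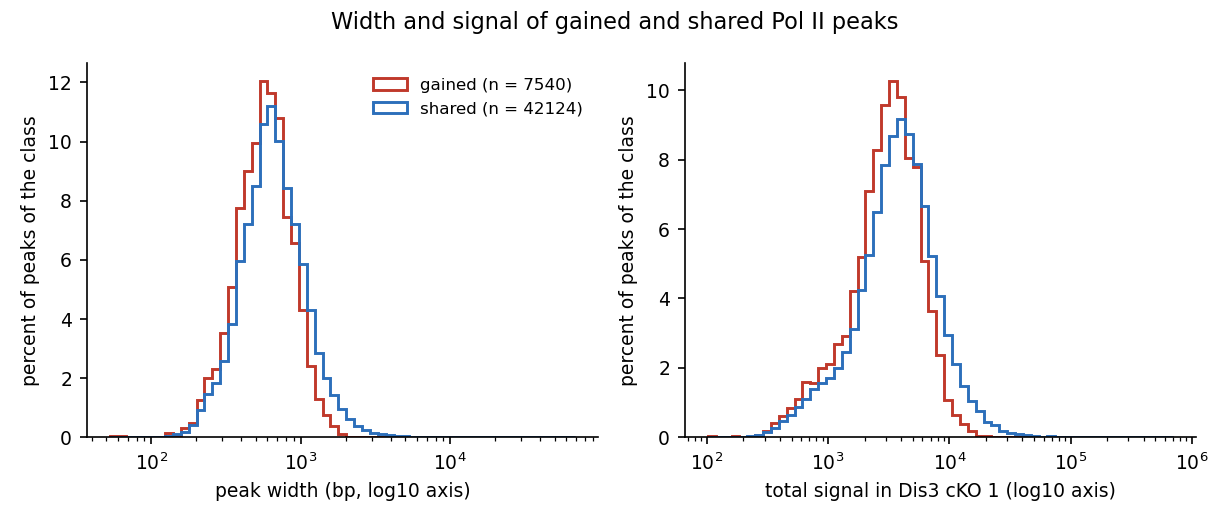
Distribution of peak width (left, bp) and total signal (right), both on log10 axes, for 7540 gained peaks (red) and 42124 shared peaks (blue) of Dis3 cKO 1, as percent of each class per bin. The classes overlap widely, and gained peaks lack the long upper tail of shared peaks, with a widest peak of 2840 bp against 68197 bp. The rule favours this, since wide peaks are more easily touched by a control peak.

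Gained peaks lay mostly inside genes and more often between genes than shared peaks. Positions were taken from RefSeq genes, with starts from a table that covers 81.7% of protein-coding genes and holds no starts for chromosome 18, so the 268 gained peaks there were not placed. Exons and introns are not given in the tables used here. Of 7272 placed peaks, 4772 (65.6%) lay in a gene body, 2242 (30.8%) between genes and 258 (3.55%) within 1000 bp of a start. Among shared peaks these shares were 73.6%, 22.7% and 3.74%, and of autosomal bases they were 46.8%, 50.9% and 2.24%. Among peaks at or above a total signal of 3002, the share between genes was 27.2% for gained and 18.4% for shared peaks. Of the gained peaks between genes, 341 (15.2%) lay within 5000 bp downstream of a gene end, where read-through transcripts arise, and 169 (7.54%) within 5000 bp upstream of a start, where promoter upstream transcripts arise, with 42 counted in both. Among shared peaks between genes the shares were 22.9% downstream and 7.54% upstream. A further 1774 (79.1%) were farther from genes than that, against 72.4% of shared peaks. The median distance to the nearest start was 22958 bp for gained and 22405 bp for shared peaks. Gained peaks made up between 7.62% (chromosome 7) and 10.2% (chromosome 16) of the list on each chromosome.

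The strongest gained peak and the widest was the same region, chr8:41543613-41546452 (build mm10), which is 2840 bp wide, lies between genes and had a total signal of 34119. Its partner in Dis3 cKO 3 had 5337, and Dis3 cKO 2 had none. The next strongest was chr8:94179479-94180472 in Mt1, which encodes the metal-binding protein metallothionein 1. Some transgenes carry 3′ sequence of Mt1 as a polyadenylation signal, and the labels do not say whether these animals do, so signal of the chromosomal gene and of another copy cannot be told apart at this peak. Its total signal was 22227 in Dis3 cKO 1, 16581 in Dis3 cKO 2 and 25616 in Dis3 cKO 3, and its maximum signal of 47 was the highest of all gained peaks. The third was chr6:48929371-48931919, which covers the start of Doxl1, a diamine oxidase-like gene, with totals of 19698, 27228 and 3192. This was also the second widest gained peak, at 2549 bp, and H3K27me3 peaks overlapped it in 2 of 3 p20 control and 2 of 3 p20 dcKO lists and in 0 of the 6 adult lists. The remaining peaks of the top 10 lay in the bodies of Ttyh3 (a chloride channel family gene), Gm42320 (a long noncoding RNA, lncRNA), Mad1l1 (a spindle checkpoint gene), Actr8 (a chromatin remodelling subunit) and Kcnj6 (a potassium channel), and between genes at chr5:52500389-52502350 and chr17:27216482-27218475. Of these 10, 3 recurred in both other Dis3 cKO lists: those at Mt1, Doxl1 and Mad1l1. Mad1l1 had totals of 16869, 6806 and 9223. The third widest peak, at Gm42320, was 2328 bp wide and had a partner of only 917 in Dis3 cKO 3. Doxl1 and Kcnj6 did not pass the filter on low RNA counts, and Gm42320 matched no counted gene.

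Long genes held the most gained peaks. Of 3735 genes with a gained peak, 276 had it at the start and 3459 only in the body, with median spans of 12164 and 49734 bp, against 6277 bp for all 47042 autosomal genes in the table. A single gained peak was held by 2611 genes (median span 35607 bp), 643 held 2 (60647 bp), 327 held 3 to 4 (113309 bp), and 92 held 5 or more (228570 bp). Camk1d, a calcium and calmodulin-dependent kinase gene, held 17 gained and 70 shared peaks over 421404 bp. The cell polarity gene Pard3 held 12 gained and 73 shared peaks, the BMP receptor gene Bmpr1b 12 and 18, the transcription factor gene Zfhx3 11 and 60, the transporter gene Abca13 10 and 21, and the transcription factor gene Foxp1 10 and 23. The shortest of these 6 genes, Bmpr1b, spans 332451 bp.

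The gene lists fixed for this work were compared with protein-coding genes in general. Of 20665 autosomal protein-coding genes, 3053 (14.8%) had a gained peak and 195 (0.944%) had one at the start, against 1 of 235 listed genes at the start. Of 21 exosome and cofactor genes, 4 (19%, median span 13122 bp) had one (Dis3l, Zcchc7, Zcchc8 and Zfc3h1), all in the body. Of 35 genes of Pol II and its elongation factors, 7 (20%, median span 11702 bp) had one (Aff4, Cdk9, Ctr9, Ell2, Polr2c, Supt16 and Supt6), and only Polr2c, a Pol II subunit, at its start. Of 31 Polycomb genes, 10 (32.3%) had one, in the body in each case, among them Ezh1, Ezh2, Eed, Suz12, Rnf2 and Jarid2, which held 6 gained and 34 shared peaks. Their median span was 28271 bp, against 17491 bp over protein-coding genes. Of 79 developmental genes known as Polycomb targets, 2 had one, Gata4 and Pax6 (2.53%, median span 6499 bp). None of 69 replication-dependent histone genes had one (median span 492 bp).

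H3K27me3 covered little of the gained peaks. Of the 7540, 5871 (77.9%) overlapped no H3K27me3 peak in any of 12 libraries, as did 78.2% of shared peaks. A further 160 were overlapped in 6 or more libraries and 22 in all 12. The share of gained-peak bases inside H3K27me3 peaks was 1.32%, 5.02% and 1.26% in adult control libraries 1, 2 and 3, and 2.12%, 1.96% and 2.20% in adult Dis3 cKO. Adult control 2 stood apart from the other control libraries, and its list, with 178429 peaks, was longer than the 94947 and 84033 of the others. In p20 control libraries the share was 2.13%, 2.01% and 2.28%, and in p20 dcKO 2.88%, 3.58% and 3.75%. The p20 groups did not overlap, and the adult groups did. The p20 dcKO lists were also longer, with 235005 to 286989 peaks against 146431 to 154486 in p20 control.

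The difference between adult Dis3 cKO and adult control was -0.44 percentage points (2.10 ± 0.123 against 2.53 ± 2.15, SD, n = 3 each; 2-sided exact permutation test, p = 1), and +0.81 without adult control 2. Between p20 dcKO and p20 control it was 1.27 points (3.40 ± 0.458 against 2.14 ± 0.132, SD, n = 3 each; exact permutation p = 0.10, the smallest that 3 against 3 allows). With H3K27me3 lists cut to equal length this p20 difference was 0.06 points (exact permutation p = 0.600), and with peaks above the pooled median signal 0.20 points. The length of autosomes inside H3K27me3 peaks moved with genotype: 2.62% to 5.48% in adult control, 5.97% to 7.59% in adult Dis3 cKO, 5.09% to 5.22% in p20 control and 6.46% to 7.57% in p20 dcKO. Relative to that cover, gained peaks held less H3K27me3 than the autosomes in each of the 12 libraries. The log2 ratio was -0.78 ± 0.57 in adult control and -1.65 ± 0.17 in adult Dis3 cKO, a difference of -0.87 (exact permutation p = 0.10), and of -0.54 without adult control 2. At p20 it was -1.28 ± 0.07 in control and -1.05 ± 0.12 in dcKO, a difference of 0.22 (exact permutation p = 0.10, SD, n = 3 each). With peaks at or above the common signal floor this p20 difference was 0.13 (exact permutation p = 0.300). With all peaks, the libraries of the groups did not overlap in the adult or the p20 comparison, and with 3 against 3 neither could pass 0.05.

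Shared peaks of the same library had nearly the same cover. The log2 ratio of gained to shared cover was -0.34 ± 0.15 in adult control, 0.01 ± 0.08 in adult Dis3 cKO, -0.13 ± 0.14 in p20 control and 0.02 ± 0.05 in p20 dcKO (SD, n = 3 each). It was therefore 0.35 higher in adult Dis3 cKO than in adult control and 0.16 higher in p20 dcKO than in p20 control, each with exact permutation p = 0.10. On midpoints the adult difference was 0.19 (exact permutation p = 0.200) and the p20 difference 0.11 (exact permutation p = 0.50). The p20 difference was also 0.06 with lists of equal length and 0.07 on peaks overlapped (exact permutation p = 0.400 each), and 0.08 without p20 control 2. Over the 12 libraries the mean was -0.11, a ratio of 0.93, with gained peaks higher in 2 of 12 (2-sided exact sign-flip permutation p = 0.0630). This test and its variants below treat the 12 libraries as independent, although they come in groups with unlike values and share the same peaks. Their p-values are therefore only a description of the spread between these libraries. Measured on peak midpoints in place of bases the mean was 0.02 (exact permutation p = 0.575). On peaks overlapped the mean was -0.01 (exact permutation p = 0.869). With peaks at or above the common signal floor, chosen after seeing the data, the mean was -0.05 (exact permutation p = 0.517). It was -0.15 with H3K27me3 peaks above the pooled median signal (exact permutation p = 0.00684) and -0.17 with lists of equal length (exact permutation p = 0.00439), so sign and call depend on the measure. Peaks without any partner held more of the mark than gained peaks in all 12 libraries, for example 4.60%, 3.81% and 4.28% in adult Dis3 cKO, and more than shared peaks in all but adult control 2 (5.62% against 5.92%).

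Taking a peak as marked where at least 2 of 3 libraries of a group overlapped it, 73 gained peaks were marked in both adult groups, 61 in control only, 113 in Dis3 cKO only, and 7293 (96.7%) in neither. At p20 the counts were 109 in both, 74 in control only, 190 in dcKO only and 7167 (95.1%) in neither. Among shared peaks, 1.42% were marked in adult Dis3 cKO only, against 1.50% of gained peaks. At p20, 2.25% of shared and 2.52% of gained peaks were marked in dcKO only. In p20 control only, the shares were 0.976% and 0.981%. By position, in p20 control the mark covered 6.20% ± 0.686 of the bases of gained peaks at starts, 1.66% ± 0.0929 in gene bodies and 2.66% ± 0.392 between genes (SD, n = 3 libraries), and shared peaks had 5.90%, 1.86% and 3.43%. The libraries of p20 control did not overlap between gained peaks at starts (5.75% to 6.99%) and those between genes (2.23% to 2.99%). In adult Dis3 cKO gained peaks at starts (3.18% to 4.22%) overlapped those between genes (3.20% to 3.65%). They did so too in adult control (3.10% to 8.68% against 1.34% to 6.97%) and in p20 dcKO (4.98% to 7.24% against 4.42% to 5.56%). The Mt1 peak was overlapped in 0 of 6 control lists, 1 of 3 adult Dis3 cKO lists and 2 of 3 p20 dcKO lists.

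**Figure D3:**
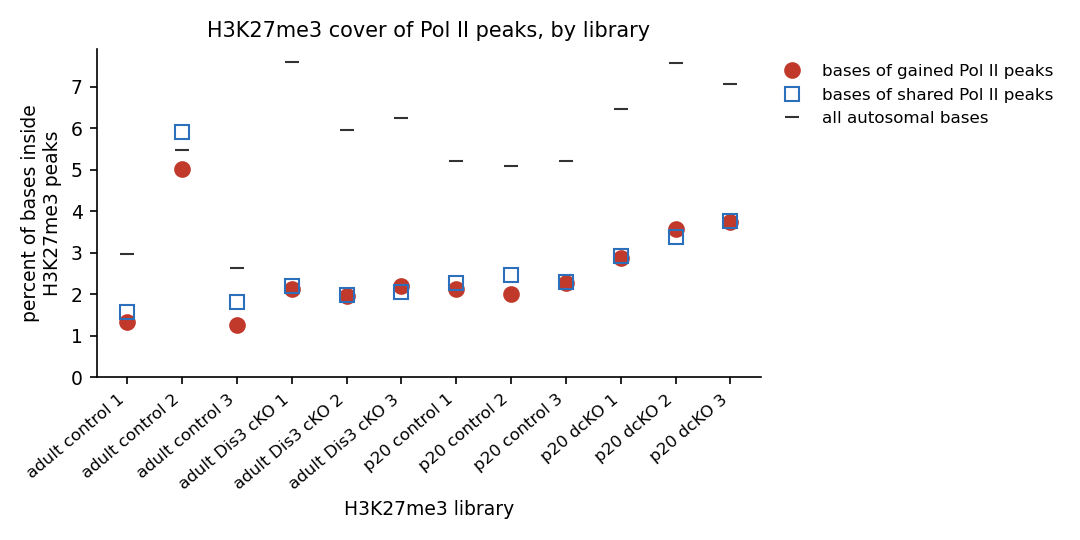
Percent of bases inside H3K27me3 peaks (y axis) in each of 12 H3K27me3 libraries (x axis), for gained Pol II peaks (red circles), shared Pol II peaks (open blue squares) and all autosomal bases (dashes). Gained and shared peaks lie close together within each library, and both sit below the autosomal value except in adult control 2, where shared peaks reach 5.92% against 5.48%.

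The RNA of genes with gained peaks was examined next, in libraries that the choice of peaks did not use. Dis3 checked the labels: it ranged from 8.81 to 21.8 CPM (read counts scaled to the library total) in adult RiboMinus control libraries and from 0.677 to 3.30 in Dis3 cKO (log2 fold change -3.13 ± 0.33 SE, adjusted p = 2.5e-06; edgeR quasi-likelihood test, adjusted over all genes by the Benjamini-Hochberg method, here and below). RiboMinus adult GV libraries held 16104881 to 35429028 gene counts and poly(A) GV libraries 4843964 to 10310183. All 16 oocyte markers averaged at least 1 CPM in both genotypes, with summed levels of 11619 to 17479 CPM in adult control and 10554 to 13979 in Dis3 cKO. Markers of granulosa and cumulus cells (7 of 15 at 1 CPM or more, 2 at 0) summed to 40.4 to 71.7 and 29.5 to 65.1 CPM, and those of theca, stroma and blood (1 of 8) to 67.5 to 94.4 and 31.4 to 84.1.

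In the adult RiboMinus comparison, genes with a gained peak at the start changed about as often as genes in general. Over 15334 tested genes, 15.7% were higher and 12.4% lower in Dis3 cKO. Of 159 tested genes with a gained peak at the start, 25 were higher (15.7%) and 19 lower (11.9%), with a median log2 fold change of 0.05. Of 615 genes with a shared but no gained peak at the start, 105 were higher (17.1%) and 78 lower (12.7%), with a median of 0.09. Of 2727 genes with a gained peak only in the body, 326 were higher (12%) and 533 lower (19.5%), with a median of -0.05. Over all 13626 tested genes that matched an autosomal gene of the table, 14.3% were higher and 13.2% lower, with a median of 0.02. Genes with shared peaks but no gained peak were close to the body class, at 12.4% higher and 17.6% lower of 4056, and genes without any peak were at 16.5% and 8.05% of 6684.

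In adult RiboMinus libraries the share of lower genes was larger where a gene held more gained peaks. It was 16.8% of 1930 genes with 1 gained peak within bounds, 21.9% of 538 with 2, 26.0% of 308 with 3 to 4 and 31.5% of 89 with 5 or more. The median span of these genes was 42646, 69310, 116162 and 229290 bp, so the number of peaks and gene length rose together in these bins. Over the same bins the lower share was 13.1%, 15%, 13.3% and 16.9% in poly(A) GV, 4.25%, 5.57%, 5.90% and 2.25% in p20 Dis3 cKO, and 34.3%, 43.6%, 48.9% and 53.9% in p20 dcKO. Among tested genes in the top quartile of span, 23.2% of those with a gained peak and 22.9% of those with shared peaks only were lower, against 12.3% of those without a peak. In the next quartiles down the shares were 18.3%, 18.6% and 9.37%, then 14.1%, 16.4% and 7.66%, and in the bottom quartile 5.91%, 10% and 5.88%. In the upper 3 quartiles the shares of genes with gained and with shared peaks lay close together and above those of genes without a peak; these differences were not tested. With scaling to the synthetic ERCC RNAs the median of all genes shifted from 0.03 to -0.52, so counts by direction are relative to the average gene. Under that scaling 75 start genes were lower (47.2%) and 7 higher (4.40%). Genes with shared peaks only were at 48.7% and 2.17%, and genes without a peak at 33.5% and 4.85%. The 8 libraries of each adult group carry 2 title tags, 4 libraries a tag; with counts summed per tag edgeR called 0 of 20190 genes, and 3577 had an unadjusted p under 0.05.

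In poly(A) GV libraries 13.6% of 17389 tested genes were higher and 8.33% lower in Dis3 cKO. Of 174 genes with a gained peak at the start, 16 were higher (9.20%) and 17 lower (9.77%), and of 2811 with one only in the body, 267 were higher (9.50%) and 389 lower (13.8%). Of 4265 genes with shared peaks only, 8.63% were higher and 11% lower there. In p20 RiboMinus libraries, where Dis3 cKO gave 3.61% of 15882 genes higher and 3.76% lower (7.37% in either direction), 9 and 3 of 162 start genes were called. In p20 dcKO, compared with the same p20 control libraries, the background was 26.6% higher and 27.1% lower, and 42 (25.9%) and 41 (25.3%) start genes were called. In the body class of that comparison 635 of 2745 (23.1%) were higher and 1062 (38.7%) lower, against 26.0% and 31.8% of 4120 genes with shared peaks only. These differences between classes were not tested. The effect of Dis3 cKO in adult minus that in p20 oocytes passed the test for 9.32% of 17267 genes. It passed for 7 of the 24 named genes tested, 14 of which were picked for their adult difference. The 7 include Mt1, which entered the p20 test only through the knockout groups, so its pass is not read as a result.

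Of the 44 start genes called in adult RiboMinus libraries, 7 higher and 7 lower ones, of 159 tested start genes, had groups that did not overlap and averaged at least 5 CPM in the higher group. Over all 15334 tested genes the same rule held for 2.69% (higher) and 3.18% (lower). With counts summed per title tag none of the adult adjusted p-values below passes. The lncRNA 4930448E22Rik was nearly absent from control oocytes, with 0 to 0.471 CPM (median 0.268), and had 1.88 to 13.7 CPM (median 4.81) in Dis3 cKO. All 8 Dis3 cKO libraries were above all 8 controls, with the 4 of title tag AM1713 at 5.90 to 13.7 CPM and the 4 of AM1757 at 1.88 to 3.71. It passed the filter on low counts only through the Dis3 cKO libraries, so its difference is given by these levels. Its gained peak, chr9:46331225-46331977, lay upstream of its start inside another gene, Gm39329. It had 0.0983 to 0.865 CPM (median 0.365) in poly(A) GV control and 0.842 to 21.1 CPM (median 6.83) in poly(A) GV Dis3 cKO, where the groups overlapped. The lncRNA Platr14 had 6.68 to 12 CPM (median 10.1) in control and 14.4 to 32.8 CPM (median 18.8) in Dis3 cKO, where AM1713 (20.4 to 32.8) again lay above AM1757 (14.4 to 17.3). It rose by a log2 fold change of 1.18 ± 0.20 SE (adjusted p = 0.000207) and by 0.59 in poly(A) libraries (adjusted p = 0.00645; 0.223 with ERCC scaling). Its peak, chr2:104559974-104560737, lay just downstream of the start. Spg21, which encodes the protein maspardin, had 11.8 to 23.9 CPM (median 18.7) in control and 31.5 to 64.4 CPM (median 36.8) in Dis3 cKO. Its log2 fold change was 1.17 ± 0.16 SE in RiboMinus (adjusted p = 4.1e-05) and 1.13 ± 0.17 SE in poly(A) libraries (adjusted p = 1.5e-07). The peak, chr9:65460240-65460778, reached into the promoter window shown above, at a start inside the bounds of the gene (65453289 to 65488470).

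The other genes of the group rose less. Tmem251, a gene of the lysosomal enzyme pathway, had a log2 fold change of 0.71 ± 0.11 SE, and its upstream peak overlapped Moap1 and Gm20604. Anks4b, an ankyrin repeat scaffold gene, had 0.53 ± 0.06 SE, with control libraries at 114 to 143 CPM and Dis3 cKO at 171 to 206. Cptp, a ceramide-1-phosphate transfer gene, had 0.50 ± 0.10 SE, and Ppp2r5c, a regulatory subunit of protein phosphatase 2A, had 0.26 ± 0.05 SE. The adjusted p-values of these 4 were 7.3e-05, 6.9e-06, 0.00129 and 0.000387. Poly(A) libraries had Tmem251 at 0.60 (adjusted p = 0.000454; 0.262 with ERCC scaling), Anks4b at 0.33 (0.0568), Cptp at 0.11 (0.814) and Ppp2r5c at 0.12 (0.506), with adjusted p in parentheses. Of the 14 genes, the 2 tags of Dis3 cKO did not overlap for 3 (4930448E22Rik, Platr14 and Cptp), and the 2 tags of control for 1 (Msl1). Under ERCC scaling Tmem251 had 0.16 (adjusted p = 0.538), and Anks4b, Cptp and Ppp2r5c turned to -0.01, -0.02 and -0.29, none past the threshold. Platr14 (0.73, adjusted p = 0.0396) and Spg21 (0.66, adjusted p = 0.0211) stayed higher, with smaller values.

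Among the lower genes, Wdr46, a gene of ribosomal RNA processing, had 16.4 to 24.7 CPM (median 20) in control and 5.06 to 11.7 CPM (median 7.59) in Dis3 cKO. Its log2 fold change was -1.36 ± 0.17 SE (adjusted p = 1.0e-05), and -1.61 ± 0.28 SE in poly(A) libraries (adjusted p = 6.6e-06). The peak, chr17:33939572-33940313, lay upstream of Wdr46 within Pfdn6. Arhgap28 had 213 to 283 CPM (median 250) in control and 99.6 to 130 CPM (median 118) in Dis3 cKO. It fell by 1.10 on the log2 scale (SE 0.07, adjusted p = 1.9e-08), and by 0.87 in poly(A) libraries (SE 0.12, adjusted p = 3.2e-08). Over its span of 161492 bp it held 5 gained and 12 shared peaks. Msl1, a gene of the MSL histone acetyltransferase complex, fell by 0.62 (SE 0.10, adjusted p = 0.000190), and by 0.54 in poly(A) libraries (SE 0.11, adjusted p = 0.000116). For all 3 genes the direction held in both RNA assays. The starts with the gained peaks of Arhgap28 and Msl1 lie inside the bounds of these genes, not at their edge.

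Add1, which encodes the membrane skeleton protein adducin 1, had 148 to 187 CPM in control and 80.7 to 123 CPM in Dis3 cKO (log2 fold change -0.61 ± 0.09 SE, adjusted p = 5.7e-05). In poly(A) libraries its value was 0.02 ± 0.11 SE (adjusted p = 0.915). The nuclear pore gene Nup214 fell by 0.46 (SE 0.08), the corepressor gene Sin3b by 0.44 (SE 0.08) and Dcun1d1, a gene of cullin neddylation, by 0.21 (SE 0.05), with adjusted p-values of 0.000418, 0.000342 and 0.00723. Poly(A) libraries had Nup214 at -0.25 (0.0772), Sin3b at -0.32 (0.0310) and Dcun1d1 at 0.16 (0.292), with adjusted p in parentheses. Total signals of the peaks at these 14 starts ran from 1305 (Dcun1d1) to 5838 (Anks4b), and none of the 14 was overlapped by an H3K27me3 peak in any adult library. Whether counting used strand is not given in the sources used here, so reads of genes that overlap others are uncertain, Gm39329, Moap1, Gm20604 and Pfdn6 among them.

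**Figure D4:**
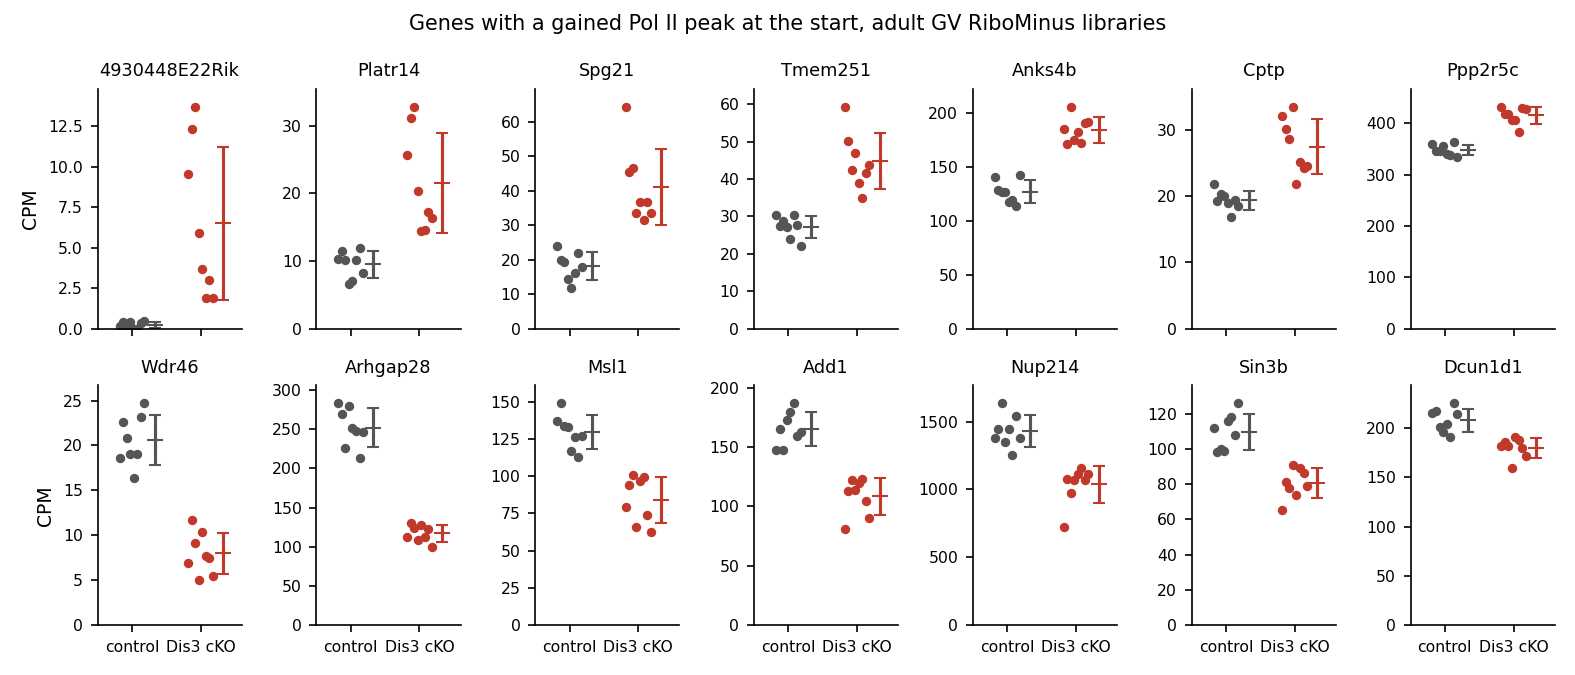
CPM (y axis, from 0) of 14 genes with a gained Pol II peak at the start, in 8 control (grey) and 8 Dis3 cKO (red) adult GV RiboMinus libraries, 1 point per library, with mean and SD beside the points. The upper row shows the 7 higher genes and the lower row the 7 lower genes; in none of the panels do the groups overlap, which the choice of genes required, and Anks4b, Cptp and Ppp2r5c change sign with ERCC scaling.

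Genes of the strongest peaks and of the most numerous peaks showed no common direction. In adult RiboMinus libraries Ttyh3 (-0.41 ± 0.11 SE, adjusted p = 0.00824) and Mad1l1 (-0.22 ± 0.07 SE, adjusted p = 0.0260; 0.0551 without the filter) fell and Actr8 rose (0.28 ± 0.07 SE, adjusted p = 0.00773; -0.27 with ERCC scaling). Of the 6 genes with the most gained peaks, only Zfhx3 passed the test there, at -0.60 ± 0.11 SE (adjusted p = 0.000634), with 630 to 876 CPM in control and 315 to 661 in Dis3 cKO. With ERCC scaling, which moved the median of all genes to -0.52, Pard3 (-0.62, adjusted p = 0.0130) and Abca13 (-0.52, adjusted p = 0.0496) passed as lower too. In the poly(A) fit Ttyh3 (0.30), Mad1l1 (-0.31) and Actr8 (0.03) did not pass, with adjusted p of 0.201, 0.112 and 0.886. Of the 6 genes, 4 passed there, given with adjusted p in parentheses. Zfhx3 went the other way, at 0.58 ± 0.15 SE (0.00230), and Pard3 was at -0.44 (0.00159). Abca13 was at 0.53 (0.00159) and Foxp1 at 0.57 (0.0458, and 0.0828 without the filter). With ERCC scaling the adjusted p was 0.387 for Zfhx3 (0.31), 0.428 for Abca13 (0.25) and 0.465 for Foxp1 (0.29), and Pard3 still passed. Camk1d, with the most gained peaks, was at 0.01 ± 0.09 SE (adjusted p = 0.955). The tested genes of each list were counted whether or not they held a gained peak. In adult RiboMinus libraries 1 of 20 exosome genes was higher and 2 were lower (median log2 fold change 0.04). The counts there were 2 and 7 of 35 for Pol II and elongation (0.02), 3 and 6 of 28 for Polycomb (-0.04), 3 and 2 of 29 for Polycomb targets (-0.15) and 7 and 2 of 38 for histones (0.11). Over all tested genes 15.7% were higher and 12.4% lower. In poly(A) GV libraries the counts were 2 and 2 of 21 for exosome genes (-0.13) and 0 and 6 of 35 for Pol II and elongation (-0.13). They were 1 and 3 of 27 for Polycomb (0.10), 3 and 3 of 27 for Polycomb targets (0.53) and 9 and 0 of 26 for histones (0.71). Over all genes tested there, 13.6% were higher and 8.33% lower. Among list genes with a gained peak, Zfc3h1 rose in adult RiboMinus libraries (0.38 ± 0.08 SE, adjusted p = 0.00165). Supt16 (-0.35 ± 0.07 SE, adjusted p = 0.00100), Supt6 (-0.30 ± 0.07 SE, adjusted p = 0.00342) and the Polycomb gene Phc2 (-0.56 ± 0.08 SE, adjusted p = 8.4e-05) fell. In the poly(A) fit Zfc3h1 (0.56, 0.00109) and Supt6 (-0.27, 0.0152) passed as well, Supt16 (-0.15, 0.232) and Phc2 (-0.25, 0.0885) did not, and Jarid2 (-0.41, 0.00621) and Gata4 (-0.85, 0.0109) passed there only, each with its log2 fold change and adjusted p.

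Mt1 RNA was present or nearly absent depending on the library. It stood apart from the other genes named here in that control libraries fell into separate low and high levels, so its values are given for every RNA group, as CPM of gene counts. In all 79 libraries of knockout oocytes Mt1 lay between 9.64 and 258 CPM. Of 40 control libraries, 25 lay between 0 and 1.44 CPM and 15 between 63.2 and 204 CPM, with none in between. All 8 p20 control libraries were low (0 to 0.697 CPM), and p20 Dis3 cKO (46.8 to 94.5 CPM), Exosc10 cKO (48.8 to 131 CPM) and dcKO (50.8 to 112 CPM) were high. All 8 MII control eggs were low (0 to 1.44 CPM), against 9.64 to 49.9 CPM in 16 Dis3 cKO eggs. In adult RiboMinus control libraries the 4 with 1 title tag were low and the 4 with the other tag were high (0.568 ± 0.439 against 74.5 ± 11.9 CPM, SD, n = 4 libraries each, TMM-scaled), and the 2 tags of Dis3 cKO averaged 45.3 and 59.3 CPM. In poly(A) libraries 1 of 8 GV controls and 4 of 8 controls cultured for 3 h were low.

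Mt1 entered the p20 test only through the knockout groups, so the p20 difference is given by the levels above. Its difference did not pass the threshold in adult RiboMinus (0.48 ± 0.85 SE, adjusted p = 0.718) or poly(A) GV libraries (-0.52 ± 0.50 SE, adjusted p = 0.519). The Pol II peak was in 3 of 3 Dis3 cKO lists, and its absence from the 6 control lists is what the rule required. The peak began 596 bp after the start of the 1445 bp gene and ended 145 bp beyond its end. Mt2, the neighbouring metallothionein gene, which responds to metals together with Mt1 and was looked at after these values had been seen, held 0 Pol II peaks of either class and was at 0 in 83 of 119 libraries, with at most 2.95 CPM of gene counts. As at the peak, reads of the chromosomal gene and of a copy in a transgene cannot be told apart, and the source of the Mt1 signal was not tested.

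**Figure D5:**
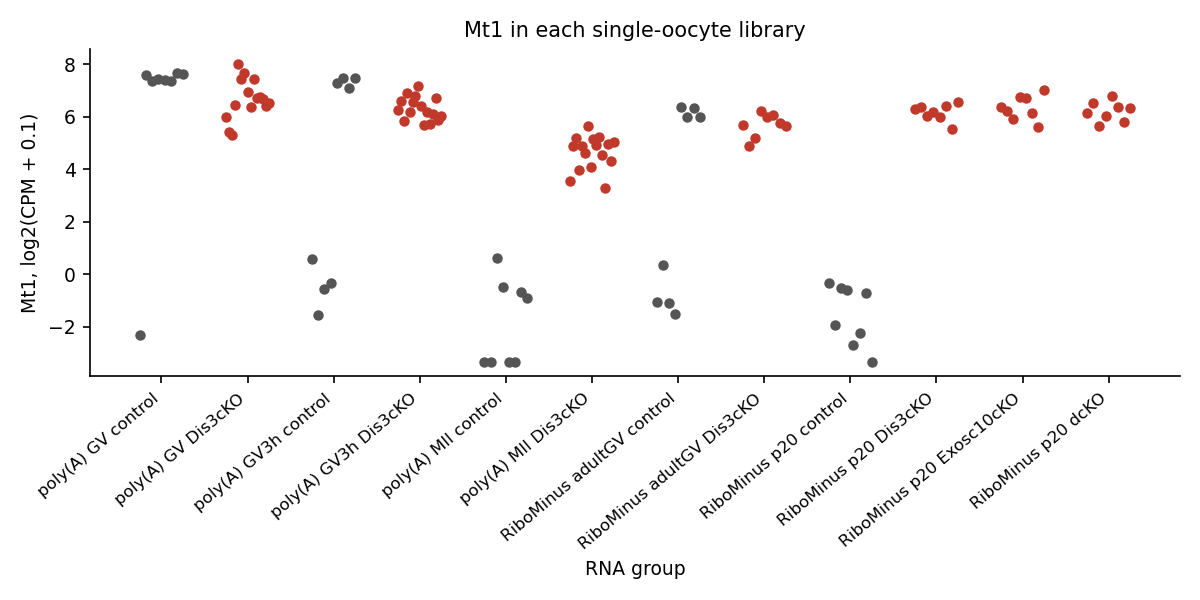
Mt1 level as log2(CPM of gene counts + 0.1) (y axis) in each single-oocyte library of the 12 RNA groups (x axis; grey control, red knockout; 1 point per library). Knockout libraries form a single high band in each group, whereas controls are all low at p20 and in MII eggs and split into low and high libraries in the other 3 control groups.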

How the data were processed

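For each CUT&Tag library 3000000 reads were sampled and duplicates were kept (stated in the series' design text), and the authors deposited 1 SEACR peak list per library on build mm10, per the submitters' processing notes. The deposited signal columns (total and maximum) are the authors' own values and were used only to rank, filter and describe peaks. RNA files hold the authors' deposited read counts per gene. The notes name cutadapt 2.5, STAR 2.7.2a, SAMtools 1.9, HTSeq 0.9.1, R 3.5.1 and DESeq2 1.24.0, and strand use is not given in the sources used here. Overlaps of at least 1 bp were counted in Python 3.11.15. Genes and starts were RefSeq GRCm38.p6, which shares coordinates with mm10, and 88.9% of tested adult RiboMinus genes matched an autosomal entry. RNA was tested with edgeR 4.0.16 (R 4.3.3; TMM, filterByExpr, Benjamini-Hochberg, threshold 0.05): the adult RiboMinus pair alone, the 6 poly(A) groups in 1 fit and the 4 p20 groups in 1 fit. The SE of a log2 fold change is its size divided by the square root of the F statistic. On simulated adult RiboMinus data (15213 genes) edgeR recovered 78% of genes changed 2-fold and 100% of genes changed 4-fold. The simulated libraries were independent, with the same spread for every gene and no effect of title tags, and only well-counted genes were changed. The recovery checks the code and does not give the power of the real design. Alternatives were DESeq2 1.42.0, no filter, ERCC scaling, sums per title tag, a replicate block, other peak filters and leaving out libraries. Libraries with equal title numbers deviated together little: correlations of deviations were -0.030 to 0.043 for H3K27me3 and -0.135 to 0.201 for poly(A) GV. In poly(A) GV the median was 0.0787 for equal numbers and -0.0192 for other pairs. Low correlations cannot show that libraries were unpaired. Peak files give no read counts, so no counting intervals are given for peaks. Named were the 10 strongest and 3 widest gained peaks, the 6 genes with most gained peaks, list genes, and start genes called in adult RiboMinus libraries without overlap of groups and at least 5 CPM (up to 8 in each direction). Members, lists and rules were chosen with earlier results of these data known.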

Additional observations from a re-analysis of the deposited data

Results flagged for a closer look

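Among 78 groups of 8 libraries examined for named genes, 8 held a library whose gap to the next, as a share of the group's range, passed Dixon's critical value, where chance gives about 1 in 20. Mt1 was at 0.104 CPM in poly(A) GV control 1 and at 158 CPM or more in the other 7. In MII control 3 it was at 1.44 CPM of gene counts, with the next at 0.611. Poly(A) GV control 1 also stood apart for Dcun1d1 (298 CPM, next 216) and Zfhx3 (59.7 CPM, next 96.3). Mad1l1 was at 61.6 CPM in poly(A) GV control 4 (next 46.1), and Anks4b at 97.4 CPM in poly(A) GV control 7 (next 81.7). The adult Dis3 cKO RiboMinus library AM1713_1 stood apart for Spg21 (64.4 CPM, next 46.7) and Nup214 (726 CPM, next 977).

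Of 24 named genes, 7, Mt1 among them, passed a test for a different response to Dis3 cKO in adult than in p20 oocytes. The test was an interaction in edgeR with Benjamini-Hochberg adjustment over all genes. Over all 17267 genes tested 9.32% passed. Of the 7, 5 (Platr14, Wdr46, Arhgap28, Msl1 and Add1) were named because their adult groups were called and did not overlap, a choice that favours such a difference, so the count of 7 is a description. The difference, adult minus p20 in log2 units, was -7.30 for Mt1. Mt1 entered the p20 test only through the knockout groups, so its pass is not read as a result and its p-value is left out. For Mt1, 4 of 8 adult control libraries are at the knockout level and all p20 controls are near 0, so the size depends on the prior count. For the other genes the difference is given with adjusted p in parentheses. The difference was 0.96 for Platr14 (0.0175), -1.39 for Wdr46 (2.6e-05) and -1.03 for Arhgap28 (1.5e-08). For Msl1 the difference was -0.73 (0.00221), for Add1 -0.43 (0.00822) and for Zfhx3 -1.0 (0.00132). Libraries that share a title tag were treated as separate here, and the interaction was not tested on sums per tag.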

How the results depend on the processing

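The number of gained peaks, 7540, became 3241 with Dis3 cKO 2 as anchor, 522 with support in both lists, 3580 with no control peak within 1000 bp, 2262 above the pooled median signal, 1300 with lists of equal length, 17209 when only adult controls were used for exclusion and 3093 above a common floor, an alternative chosen after seeing the data. It lay between 1637 and 9422 when 1 list was left out, the lowest without Dis3 cKO 3.

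For H3K27me3, the adult difference in the share of gained-peak bases turned from -0.44 to 0.81 without adult control 2 and lay between -1.07 and 0.81 when 1 library was left out (-1.07 without adult control 3). The log2 ratio of gained to shared cover over 12 libraries was 0.02 on midpoints and -0.01 on peaks overlapped (exact permutation p = 0.575 and 0.869). It was -0.05 (exact permutation p = 0.517) with peaks at or above the common signal floor. It was -0.15 (exact permutation p = 0.00684) with peaks above the median signal and -0.17 (exact permutation p = 0.00439) with lists of equal length. When 1 library was left out it lay between -0.13 and -0.07. It passed the threshold without adult Dis3 cKO 3 (exact permutation p = 0.0303) or p20 dcKO 2 (exact permutation p = 0.0342). These p-values over all libraries ignore that the libraries come in groups with unlike values. With the replicate block (paired by title number) the 6 differences kept their values, with an exact permutation p of 0.250 for 5 of them and 1 for the adult share.

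With ERCC scaling, adult RiboMinus calls went from 4305 to 6843 genes. Of 159 start genes, 7 were then higher (4.40%) and 75 lower (47.2%), and of 2727 body genes 45 were higher (1.65%) and 1457 lower (53.4%). Genes with shared peaks only were at 2.17% and 48.7%, and genes without a peak at 4.85% and 33.5%. In poly(A) libraries, of 174 start genes 5 were higher (2.87%) and 30 lower (17.2%). Of 2811 body genes there, 72 were higher (2.56%) and 549 lower (19.5%). Genes with shared peaks only were at 2.98% and 16.9%, and genes without a peak at 8.07% and 9.80%. With sums per title tag every adult count was 0, and p20 Dis3 cKO gave 286 genes in place of 1171. With starts of 2000 bp either side, 41 start genes were higher and 34 lower in RiboMinus libraries, and 31 and 35 in poly(A) libraries. With 500 bp, 19 were higher and 10 lower in RiboMinus libraries. The number of genes tested with these other start regions is not given here, so these counts are not set against the share over all genes. A replicate block on title numbers gave 2784 in place of 3806 poly(A) calls (start genes 13 higher, 19 lower), and on title tags 1219 for p20 Dis3 cKO and 8529 for dcKO.

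Of 48 named log2 fold changes, DESeq2 reversed 0, no filter 2 (Camk1d and Abca13, both -0.01) and ERCC scaling 14. ERCC scaling moved the median of all genes from 0.03 to -0.52 in RiboMinus and from 0.04 to -0.23 in poly(A) libraries, so small positive values turn with it whichever the gene. They became, in RiboMinus libraries, -0.07 for Mt1, -0.27 for Actr8, -0.01 for Anks4b, -0.02 for Cptp, -0.29 for Ppp2r5c, -0.50 for Camk1d, -0.39 for Bmpr1b, -0.52 for Abca13 and -0.34 for Foxp1. In poly(A) libraries they became -0.20 for Actr8, -0.13 for Cptp, -0.11 for Ppp2r5c, -0.22 for Add1 and -0.10 for Dcun1d1. Peak lists without read depths, with unequal lower ends, limit what the number of gained peaks can show.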
